A study of Mus musculus with 80 samples.

Results

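The RNA levels of 46 imprinted genes were compared across 12 RNA-seq libraries of mouse embryonic stem (ES) cells, which derive from the inner cell mass of the blastocyst and renew themselves in culture. The genes were chosen by symbol, as genes known to be imprinted in the mouse, from 37890 gene symbols listed in the expression tables. By textbook assignment, 20 of them are expressed mainly from the maternal allele and 26 mainly from the paternal allele, and they fall into 9 imprinted clusters and 11 single genes. The libraries measured total RNA of each gene and not its alleles, so the parental grouping is background and not a measurement here.

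Each line was labelled as mouse ES cells, and most carried a change in Sall4 or Sall1, which encode spalt-like zinc finger proteins that bind DNA. Sall4 KO cells (Sall4 delta/-) given wild-type SALL4A formed 1 library, called KO plus WT. Sall4 KO cells given a mutant SALL4A, labelled in replicate 2 as the transgene Flag-SALL4A-MUT, formed 2 libraries, called KO plus mutant. Sall4 KO cells had 2 libraries, and their control, Sall4 het (Sall4 flox/-), had 2, so the controls and the add-backs, like Sall4 KO, all carried a minus allele of Sall4. The double knockout DKO (Sall1-/-/Sall4-/-) and the wild-type cells paired with it had 1 library each, and so did Sall1 KO (Sall1 delta/-), its control Sall1 het (Sall1 flox/-, which likewise carries a minus allele) and the wild-type line TT2. The replicate 1 libraries and the single libraries other than TT2 were labelled C57BL/6J, the replicate 2 libraries E14.1 of strain 129P2/OlaHsd, and TT2 as a (C57BL/6NCrlj x CBA/JNCrlj)F1 line. Both replicates of a Sall4 group nevertheless carried the same BioSample record, and nothing in the labels said that they were separate cultures or clones. The fit described below takes out the difference that all groups share between replicates 1 and 2. Its p-values therefore rest on how far group differences disagree between the replicates, and that spread may be technical. The site of the SALL4A mutation and the exons deleted from Sall4 or Sall1 are not given in the labels. The other 68 samples of the series were not used here.

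The deposited values were FPKM or RPKM, fragments or reads per kilobase of transcript scaled to the mapped total, so levels of different genes can be set side by side but the depth behind them is unknown. The tables were normalised separately, so a statement that libraries of both replicates lie above or below others sets deposited FPKM and RPKM side by side, while ratios and fits stay within a replicate. All 10 ES cell markers examined, such as Pou5f1 and Nanog, were at 1 or more in every library whose table listed them, with summed values of 3425 to 7113. Sall4 RNA was not low in the knockout libraries, at 109 to 358 in the 2 Sall4 KO libraries and the DKO library against 17.6 to 196 in their controls, and since the deleted exons are not known this gene-level value checks no label. Sall1 was at 2.27 FPKM in DKO against 13.9 in its wild-type cells, and at 13.3 FPKM in Sall1 KO against 21.8 in Sall1 het.

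Imprinting is the silencing of a gene on the chromosome inherited from one parent, set for many but not all imprinted genes by DNA methylation that is laid down in the egg or the sperm. The methylated imprinting control region of a cluster then governs several genes, often through a long non-coding RNA or through the insulator protein CTCF, and the marks survive the wave of demethylation in the early embryo because the zinc finger protein ZFP57 and its partner TRIM28 hold the methylation in place. Imprinted genes act on fetal growth, the placenta and metabolism, and in ES cells their methylation and expression are known to drift in culture and to differ between lines.

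ZFP57 binds the letters TGCCGC when they are methylated, so the promoters of 3 members on which the results turn are shown with that motif. Mest and Nnat are shown because they separated the KO plus WT library from the KO plus mutant libraries most widely, and Peg3 because it had the largest difference between Sall4 KO and Sall4 het. The windows run from 250 bases before to 50 after the RefSeq start (GRCm38.p6), 5′ to 3′ on the gene's strand, with capitals marking TGCCGC or its reverse complement. They lie at chr6:30737803-30738102 (plus strand, Mest), chr2:157559828-157560127 (plus strand, Nnat) and chr7:6730370-6730669 (minus strand, Peg3).

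Mest: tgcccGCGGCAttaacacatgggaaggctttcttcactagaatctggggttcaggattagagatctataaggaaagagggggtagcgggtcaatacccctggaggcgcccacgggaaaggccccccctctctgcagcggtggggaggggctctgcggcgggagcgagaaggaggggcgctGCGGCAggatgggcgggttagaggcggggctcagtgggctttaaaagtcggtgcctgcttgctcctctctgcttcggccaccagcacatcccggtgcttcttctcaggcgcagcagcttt
Nnat: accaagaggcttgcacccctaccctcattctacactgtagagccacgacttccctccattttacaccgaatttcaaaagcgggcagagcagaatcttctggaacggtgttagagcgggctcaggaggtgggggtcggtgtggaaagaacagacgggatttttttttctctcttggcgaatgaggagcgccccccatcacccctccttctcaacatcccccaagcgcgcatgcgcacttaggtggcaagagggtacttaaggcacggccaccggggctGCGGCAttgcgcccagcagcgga
Peg3: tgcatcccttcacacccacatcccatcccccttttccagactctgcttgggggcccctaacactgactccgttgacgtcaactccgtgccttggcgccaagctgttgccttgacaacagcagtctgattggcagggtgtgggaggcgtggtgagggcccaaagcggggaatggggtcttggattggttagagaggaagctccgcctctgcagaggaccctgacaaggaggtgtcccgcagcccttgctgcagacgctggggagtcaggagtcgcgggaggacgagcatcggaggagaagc

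The Mest window shown held 2 matches, the Nnat window 1 and the Peg3 window 0. Mest has more than 1 RefSeq window, and the window shown was picked for holding the most matches. Another Mest window, at chr6:30733256-30733555, held 0. Of the 46 genes, 37 had at least 1 promoter window in the RefSeq table. Of these, 13 (35.14%) held the motif on either strand in at least 1 window, against 3527 of 27025 genes overall (13.05%). The motif contains a CG pair. Counting CG pairs in the window of each gene that held the most, the median was 17 for imprinted genes and 8 for all genes. A match describes letters and not a bound site. The Peg3 window shares 263 bases with that of Usp29, which is transcribed in the opposite direction from the same start region.

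Over the 11 libraries other than TT2, 31 of the 46 genes reached 5 FPKM or RPKM in at least 1 library. Another 7 (Rtl1, Kcnq1ot1, Slc22a18, Ascl2, Mkrn3, Peg12 and Calcr) peaked between 1 and 5. The remaining 8 (Usp29, Zim1, Magel2, Airn, Asb4, Nap1l5, Peg13 and Kcnk9) stayed under 1 in every library that listed them, and Kcnk9, a maternally expressed potassium channel gene, was listed at 0 in each of the 9 tables that held it. The FPKM tables of Sall4 KO and Sall4 het replicate 1 did not list H19, Meg3, Rian, Mirg, Kcnq1ot1 and Peg13, and the RPKM tables of replicate 2 did not list Mest, Copg2, Peg10, Magel2, Airn, Asb4, Kcnq1ot1, Peg13 and Kcnk9 for KO or het. Together with 6 genes under the level filter (Usp29, Zim1, Rtl1, Dio3, Calcr and Nap1l5), this left 27 imprinted genes in the fit of Sall4 KO, Sall4 het and KO plus mutant. Those 27 had to pass the filter, and their counts do not describe all 46.

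Which imprinted RNAs differ when Sall4 is deleted was asked with Sall4 KO against Sall4 het. Peg3 and Igf2 were more than 2-fold higher in Sall4 KO in both replicate pairs, and Slc38a4 and Phlda2 more than 2-fold lower. At an unadjusted p under 0.05, Cdkn1c, Dlk1, Sgce, Zdbf2 and Impact were also higher in Sall4 KO and Nnat lower. Gnas and Plagl1 missed that limit but were higher in both pairs too, with log2 ratios of 0.74 and 0.54 for Gnas and 0.48 and 0.31 for Plagl1. None of these passed the test after adjustment over all genes, so the directions are descriptions of 2 replicate pairs.

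Peg3, a paternally expressed zinc finger gene on chr7:6658670-6683130 (mm9) known for its role in maternal behaviour and growth, stood at 38.4 FPKM and 19.1 RPKM in Sall4 KO replicates 1 and 2, against 8.02 FPKM and 3.31 RPKM in Sall4 het. Both Sall4 KO libraries were above both Sall4 het libraries. The log2 change, on the scale of log2(scaled value + 1) that all changes here use and that understates low genes, was 2.13 ± 0.23 (SE, n = 2 libraries a group), with an adjusted p of 0.319 in limma. Usp29, the divergent neighbour of Peg3, ran the other way at low level, with 0.0880 and 0.0695 in Sall4 KO against 0.793 and 0.438 in Sall4 het, all under 1 and so not fitted. Whether reads were counted by strand was not stated. For Sall4 KO and het, Usp29 was listed at chr7:6913870-6916480 (mm9). Peg3 was listed there at chr7:6656602-6683158 in replicate 1 and chr7:6656602-6683132 in replicate 2, so the listed intervals did not overlap. Zim1, the maternally expressed zinc finger gene of the cluster, was at 0.291 and 0.430 in Sall4 KO and 0.226 and 0.172 in Sall4 het.

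Igf2, the paternally expressed fetal growth factor on chr7:149836672-149856261 (mm9), was at 45.2 FPKM and 16.1 RPKM in Sall4 KO, against 15.7 FPKM and 2.79 RPKM in Sall4 het. It was higher in Sall4 KO within each replicate. The log2 change was 1.78 ± 0.24 with a limma adjusted p of 0.356. H19, the maternally expressed non-coding RNA that shares enhancers with Igf2 across the CTCF insulator, was listed for replicate 2 only, at 4.24 RPKM in Sall4 KO against 8.90 RPKM in Sall4 het, a log2 ratio of -0.97. Igf2r, the maternally expressed receptor that clears IGF2, was at 10.3 FPKM and 8.66 RPKM in Sall4 KO and 14.9 FPKM and 5.81 RPKM in Sall4 het, so the replicates differed in direction. Its antisense partner Airn, a paternally expressed non-coding RNA, was at 0.393 FPKM in Sall4 KO replicate 1 and 0.204 in Sall4 het replicate 1.

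Slc38a4, a paternally expressed amino acid transporter gene on chr15:96825253-96886387 (mm9), was at 14.9 FPKM and 13.8 RPKM in Sall4 KO, against 59.8 FPKM and 39.9 RPKM in Sall4 het. Both Sall4 KO libraries were below both Sall4 het libraries, with a log2 change of -1.73 ± 0.25 and a limma adjusted p of 0.356. Phlda2, the maternally expressed gene of the Kcnq1 cluster that limits placental growth, was at 11.4 FPKM and 14.7 RPKM in Sall4 KO, against 25.9 FPKM and 60.5 RPKM in Sall4 het. The groups did not overlap, but the replicate pairs differed in size, with log2 ratios of -1.11 and -2.02, and the fitted change was -1.58 ± 0.50 with a limma adjusted p of 0.525.

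**Figure D1:**
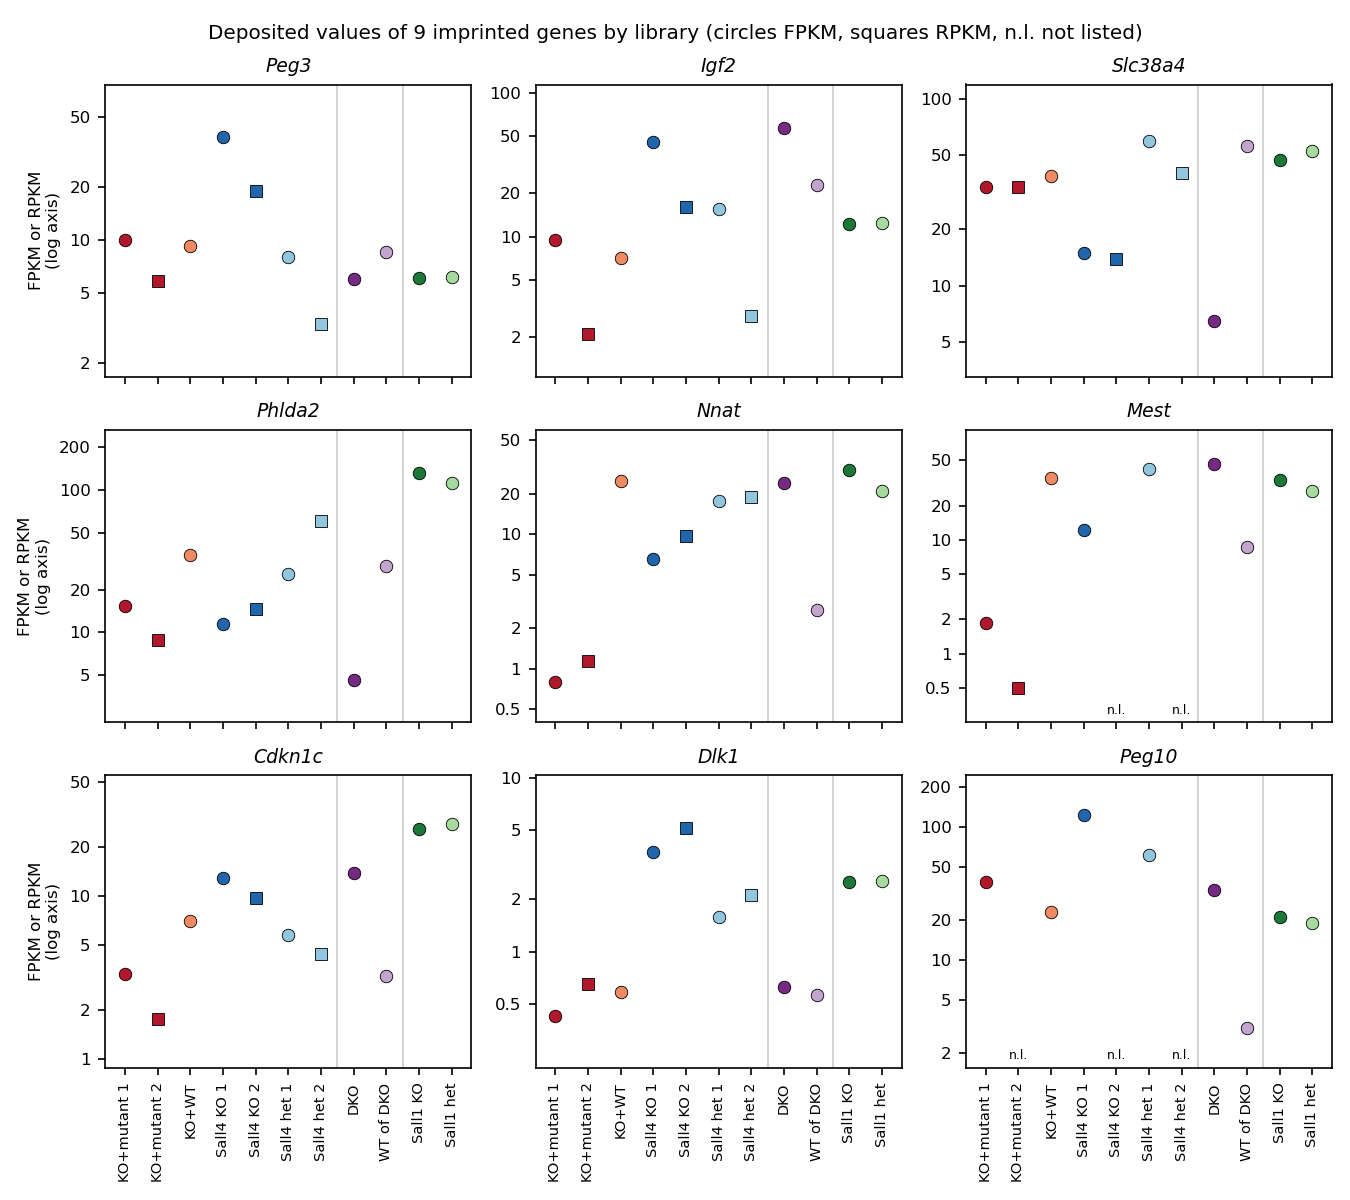
Deposited values of 9 imprinted genes in 11 libraries on log axes, with circles for FPKM, squares for RPKM and n.l. where a table does not list the gene; each point is 1 library. Peg3, Igf2, Cdkn1c and Dlk1 stand above Sall4 het in both Sall4 KO libraries and Slc38a4, Phlda2 and Nnat below, while Nnat and Mest are at 1.86 or less in KO plus mutant and at 24.8 or more in KO plus WT.

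Within the Kcnq1 cluster, Cdkn1c ran against Phlda2. Cdkn1c, the maternally expressed inhibitor of the cell cycle, was at 12.9 FPKM and 9.75 RPKM in Sall4 KO against 5.76 FPKM and 4.42 RPKM in Sall4 het, with a log2 change of 0.97 ± 0.22 and a limma adjusted p of 0.441. The Sall4 KO libraries were both above the Sall4 het libraries. Their neighbours Slc22a18, Ascl2 and Tssc4 had log2 changes of -0.32, -0.26 and 0.08. Kcnq1ot1, the paternally expressed non-coding RNA whose transcription silences the cluster, was not listed in the Sall4 KO and het tables and peaked at 1.34 FPKM, in Sall1 het.

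In the Dlk1-Dio3 cluster, the paternally expressed Notch ligand gene Dlk1 was at 3.72 FPKM and 5.17 RPKM in Sall4 KO, against 1.58 FPKM and 2.13 RPKM in Sall4 het, a log2 change of 0.88 ± 0.20 with a limma adjusted p of 0.441. The maternally expressed non-coding RNAs Meg3, Rian and Mirg, whose expression marks ES lines that can support full-term development, were listed for replicate 2 only. There Meg3 was at 276.7 RPKM in Sall4 KO against 102.7 in Sall4 het, Rian at 143.9 against 70.0, and Mirg at 29.0 against 10.7, log2 ratios of 1.36, 0.97 and 1.31. The maternally expressed RNAs and Dlk1 were higher in Sall4 KO. Rtl1 and Dio3 were at 0.514 and 0.961 FPKM in Sall4 KO replicate 1 and 0.257 and 0.671 in Sall4 het replicate 1. In replicate 2 Rtl1 was at 0.851 RPKM in Sall4 KO and 0.292 in Sall4 het, and Dio3 ran the other way, at 0.765 RPKM in Sall4 KO and 1.49 in Sall4 het.

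**Figure D2:**
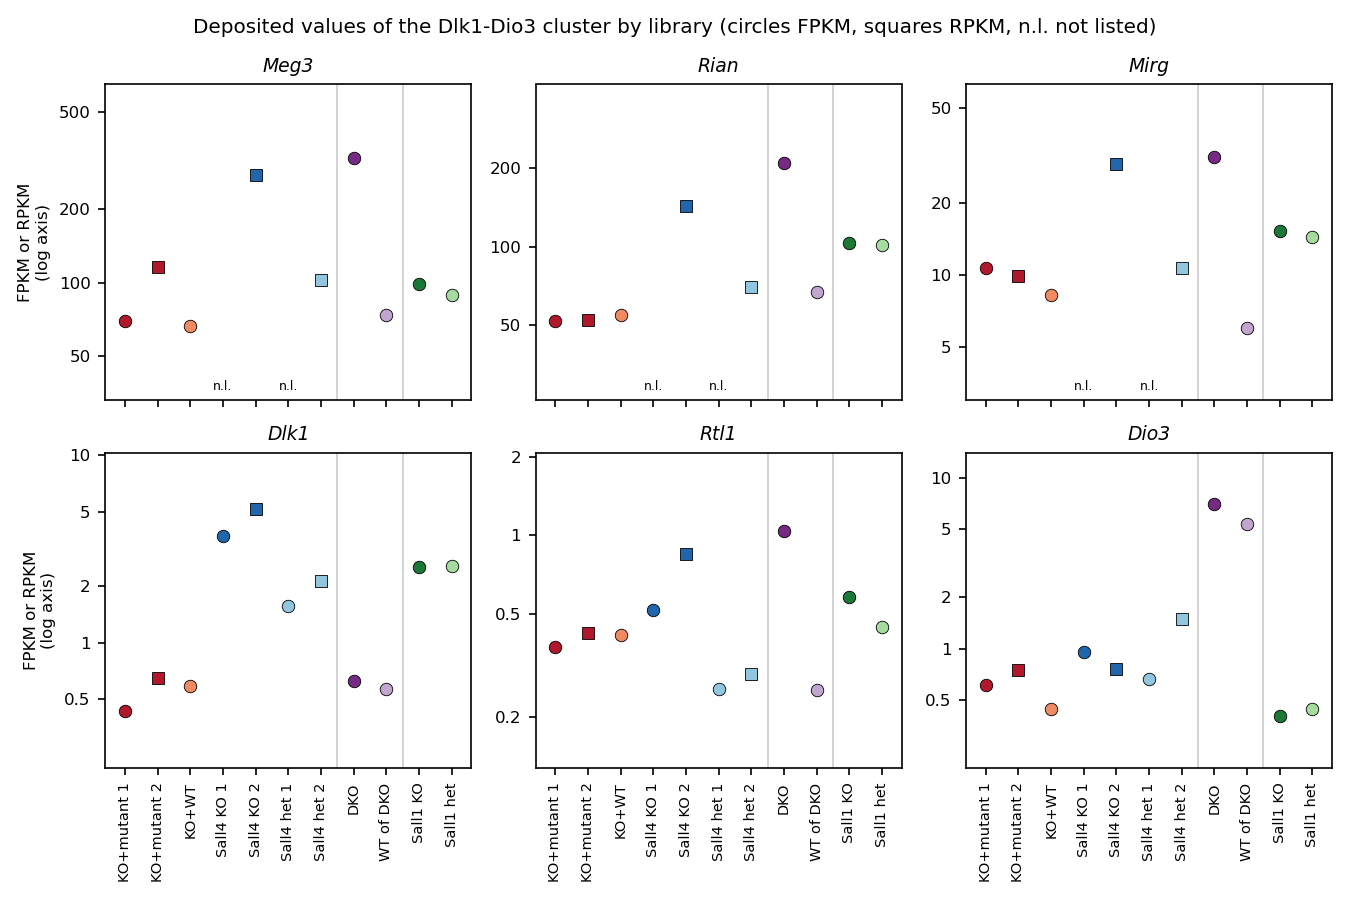
Deposited values of 6 genes of the Dlk1-Dio3 cluster in the 11 libraries other than TT2, on log axes, with circles for FPKM, squares for RPKM and n.l. where a table does not list the gene; each point is 1 library. Among these libraries Meg3, Rian and Mirg are highest in DKO and in Sall4 KO replicate 2 and nearly equal within the Sall1 pair, while Dio3 is high in DKO and its wild-type cells alike, at 7.03 and 5.37.

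In the Peg10 cluster, 2 genes stood higher. Sgce, the paternally expressed epsilon-sarcoglycan gene, was at 10.2 FPKM and 17.5 RPKM in Sall4 KO against 7.16 FPKM and 6.75 RPKM in Sall4 het, a log2 change of 0.81 ± 0.26 with a limma adjusted p of 0.524. Peg10, the retrotransposon-derived gene required in the placenta, was listed for replicate 1 only, at 121.7 FPKM in Sall4 KO against 60.95 in Sall4 het, a log2 ratio of 1.00. Ppp1r9a differed little, with a log2 change of 0.34, and Asb4 and Calcr were under 1 in every Sall4 KO and Sall4 het library that listed them.

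Nnat, the paternally expressed neuronatin gene, lies in an intron of Blcap at chr2:157385845-157388255 (mm9). It was at 6.58 FPKM and 9.69 RPKM in Sall4 KO, against 17.6 FPKM and 19.0025 RPKM in Sall4 het. The groups did not overlap, with a log2 change of -1.13 ± 0.21 and a limma adjusted p of 0.418. Mest, a paternally expressed gene of the hydrolase fold that shares a locus with the maternally expressed Copg2 (chr6:30683505-30846760, mm9), was listed for replicate 1 only, at 12.3 FPKM in Sall4 KO against 41.5 in Sall4 het, a log2 ratio of -1.67. Copg2 in the same pair was at 21.9 FPKM in Sall4 KO and 29.9 in Sall4 het, a log2 ratio of -0.42.

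Of the single genes, Impact, a regulator of translation under stress, was at 69.8 FPKM and 78.0 RPKM in Sall4 KO and 46.4 FPKM and 43.9 RPKM in Sall4 het (log2 change 0.66 ± 0.23, limma adjusted p of 0.565). Zdbf2 was at 9.41 and 9.85 in Sall4 KO and 5.95 and 4.82 in Sall4 het (log2 change 0.70 ± 0.22, limma adjusted p of 0.520). In the other 17 fitted genes the unadjusted p was 0.05 or more, with log2 changes between -0.91 for Inpp5f and 0.62 for Gnas. These include Snrpn, Ndn, Mkrn3, Peg12 and Ube3a of the Prader-Willi and Angelman region, whose log2 changes lay between -0.34 and 0.13, and Grb10, Trappc9, Zrsr1 and Mcts2, between -0.18 and 0.13. Zrsr1, Mcts2 and Trappc9 share their loci with other genes (Commd1, H13 and Peg13), so their values are uncertain where reads could be split. Inpp5f showed how far replicates could part, with log2 ratios of -0.23 in replicate 1 and -1.56 in replicate 2.

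By count, 0 of 15078 genes passed an adjusted p of 0.05 in limma (0%), the smallest being 0.237, and 0 of the 27 imprinted genes did. At an unadjusted p under 0.05, 7 imprinted genes were higher in Sall4 KO, where 3.8% of all genes tested were, and 3 were lower, where 4.71% were. In both replicate pairs, 2 were 2-fold higher (1.03% of all genes) and 2 were 2-fold lower (1.41%). The median log2 change was 0.08 over the 27 imprinted genes and -0.02 over all genes, so the middle of the group lay near that of all genes. Of the 11 maternally expressed genes fitted, 1 was higher and 1 lower at an unadjusted p under 0.05, and of the 16 paternally expressed genes 6 were higher and 2 lower. In single pairs, over genes that reached 5 in at least 1 of the 2 libraries, 3 of 23 were 2-fold higher and 4 lower in replicate 1 (4.07% and 4.51% of all genes), and 5 of 25 were higher and 3 lower in replicate 2 (5.74% and 7.8%). Igf2 and Peg3 of replicate 2 reached 5 in Sall4 KO alone, and Meg3 and Mirg, both among the higher genes of replicate 2, lie in the same cluster.

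Markers of other cell types moved in the same comparison. Of 11 primitive endoderm markers, Dab2, Col4a1 and Col4a2 were 2-fold higher in Sall4 KO in both pairs. Of the 6 tested, 4 were higher and 0 lower at an unadjusted p under 0.05 in limma (3.8% and 4.71% of all genes). The list summed to 198.9 FPKM and 105.4 RPKM in Sall4 KO against 244.3 FPKM and 112.2 RPKM in Sall4 het. Sparc, most of each sum, was at 148.1 FPKM and 71.4 RPKM in Sall4 KO against 218.9 FPKM and 101 RPKM in Sall4 het. The defining factor Gata4 was at 1.95 FPKM and 2.11 RPKM in Sall4 KO against 0.824 FPKM and 0.200 RPKM in Sall4 het. Gata6 was at 1.28 FPKM and 0.607 RPKM against 0.641 FPKM and 0.180 RPKM. The defining factors Sox17, Sox7 and Foxa2 were under 1 in every library that listed them. Of 10 trophoblast markers, Cdx2, a defining factor, was at 2.58 FPKM and 1.09 RPKM in Sall4 KO and 0.116 and 0.167 in Sall4 het. Hand1 was at 7.33 FPKM and 3.23 RPKM in Sall4 KO and 2.77 FPKM and 1.25 RPKM in Sall4 het. Elf5 ran the other way, at 0.294 FPKM and 0.502 RPKM in Sall4 KO and 0.838 and 2.15 in Sall4 het. Krt8 and Krt18 were higher in Sall4 KO in replicate 1 (62.0 against 42.5 and 63.2 against 37.3 FPKM). In replicate 2 they were lower in Sall4 KO (19.05 against 20.1 and 13.6 against 16 RPKM). The summed values were 161.7 and 72.5 in Sall4 KO and 112.1 and 58.9 in Sall4 het, and Tpbpa was listed at 0 in replicate 1. The summed fibroblast markers were 143 and 51.9 in Sall4 KO and 71.8 and 58.3 in Sall4 het. The part of these cells in the imprinted genes' values was not tested, and in bulk RNA a change in the share of cells and a change in RNA per cell cannot be told apart.

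Whether SALL4A put back into the knockout cells alters these RNAs was read from KO plus WT and KO plus mutant against Sall4 KO. In both add-backs Peg3, Igf2, Peg10 and Dlk1 were lower than in Sall4 KO, and Slc38a4 was higher. Nnat, Mest and Phlda2 separated the add-backs, with high values in KO plus WT and low values in KO plus mutant. None of the differences between KO plus mutant and Sall4 KO passed the adjusted test, and KO plus WT has 1 library and no test. The add-backs share the Sall4 KO libraries as their denominator, so their ratios are not independent of each other or of the ratios of Sall4 KO to Sall4 het.

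Igf2 was at 7.11 FPKM in KO plus WT and at 9.49 FPKM and 2.11 RPKM in KO plus mutant, against 45.2 FPKM and 16.1 RPKM in Sall4 KO. All add-back libraries were below both Sall4 KO libraries. The log2 change of KO plus mutant from Sall4 KO was -2.03 ± 0.24 (limma adjusted p of 0.341), and the log2 ratio of KO plus WT to Sall4 KO replicate 1 was -2.29. Peg3 was at 9.24 FPKM in KO plus WT and at 9.94 FPKM and 5.83 RPKM in KO plus mutant, against 38.4 FPKM and 19.1 RPKM in Sall4 KO. Its log2 change in KO plus mutant was -1.42 ± 0.23 (limma adjusted p of 0.365) and its log2 ratio in KO plus WT -1.72. In deposited values Peg3 was above Sall4 het in both add-backs, most in KO plus mutant replicate 2 (5.83 RPKM against 3.31 in Sall4 het).

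Slc38a4 was at 38.9 FPKM in KO plus WT and at 33.8 FPKM and 33.7 RPKM in KO plus mutant, against 14.9 FPKM and 13.8 RPKM in Sall4 KO. All add-back libraries were above both Sall4 KO libraries, with a log2 change of 1.48 ± 0.24 in KO plus mutant (limma adjusted p of 0.365) and a log2 ratio of 1.55 in KO plus WT. Peg10 was at 23.0 FPKM in KO plus WT and 38.2 FPKM in KO plus mutant replicate 1, against 121.7 FPKM in Sall4 KO replicate 1, log2 ratios of -2.12 and -1.37.

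Dlk1 stood below Sall4 het in both add-backs, and Cdkn1c in KO plus mutant alone. Dlk1 was at 0.587 FPKM in KO plus WT and at 0.429 FPKM and 0.650 RPKM in KO plus mutant, against 3.72 FPKM and 5.17 RPKM in Sall4 KO and 1.58 FPKM and 2.13 RPKM in Sall4 het. The log2 change of KO plus mutant was -1.64 ± 0.19 from Sall4 KO (limma adjusted p of 0.341) and -0.76 ± 0.19 from Sall4 het (limma adjusted p of 0.460). Cdkn1c was at 7.01 FPKM in KO plus WT, and at 3.34 FPKM and 1.78 RPKM in KO plus mutant, with a log2 change from Sall4 KO of -1.57 ± 0.22 (limma adjusted p of 0.357). Plagl1, a paternally expressed zinc finger gene that regulates other imprinted genes, was at 0.395 FPKM in KO plus WT and at 0.799 FPKM and 0.437 RPKM in KO plus mutant, against 2.29 FPKM and 2.59 RPKM in Sall4 KO, a log2 change of -0.94 ± 0.24 in KO plus mutant (limma adjusted p of 0.425). Sgce and Impact differed less from Sall4 KO. Sgce was at 5.51 FPKM in KO plus WT and at 7.77 FPKM and 9.48 RPKM in KO plus mutant, and Impact at 56.3 FPKM in KO plus WT and at 52.2 FPKM and 43.5 RPKM in KO plus mutant. The log2 ratio of KO plus WT to Sall4 KO was -0.57 for Sgce and -0.07 for Impact, and the log2 changes of KO plus mutant were -0.30 ± 0.25 and -0.31 ± 0.23, with limma adjusted p-values of 0.690 and 0.647.

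In the rest of the Dlk1-Dio3 cluster, Meg3, Rian and Mirg were at 116.5, 52.5 and 9.92 RPKM in KO plus mutant replicate 2, against 276.7, 143.9 and 29.0 RPKM in Sall4 KO replicate 2, log2 ratios of -0.95, -1.15 and -1.19. In the replicate 1 tables they were at 66.5, 54.6 and 8.28 FPKM in KO plus WT and at 70.1, 51.8 and 10.7 FPKM in KO plus mutant, where Sall4 KO was not listed. The add-backs were close to each other for these RNAs, with log2 ratios of KO plus WT over KO plus mutant of -0.12 for Meg3, 0.03 for Rian and -0.37 for Mirg.

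Nnat was at 24.8 FPKM in KO plus WT and at 0.799 FPKM and 1.15 RPKM in KO plus mutant, against 6.58 FPKM and 9.69 RPKM in Sall4 KO and 17.6 FPKM and 19.0025 RPKM in Sall4 het. The KO plus mutant libraries were the lowest of the 11 and KO plus WT was above both Sall4 KO and both Sall4 het libraries. Its log2 change in KO plus mutant was -1.99 ± 0.21 from Sall4 KO (limma adjusted p of 0.341) and -3.12 ± 0.21 from Sall4 het (limma adjusted p of 0.201). Without KO plus mutant replicate 1 the comparison with Sall4 het gave an adjusted p of 0.0411, and without replicate 2 it gave 0.00696, where limma takes the lone library to vary like the other groups. Over the other alternatives of that comparison Nnat did not pass.

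Mest was at 35.0 FPKM in KO plus WT and 1.86 FPKM in KO plus mutant replicate 1, against 12.3 FPKM in Sall4 KO replicate 1 and 41.5 FPKM in Sall4 het replicate 1. In replicate 2 it was at 0.498 RPKM in KO plus mutant, and the Sall4 KO and het tables did not list it. The log2 ratio of KO plus mutant replicate 1 was -1.99 to Sall4 KO and -3.64 to Sall4 het, and that of KO plus WT to Sall4 KO was 1.66. Copg2, which overlaps Mest, was at 21.0 FPKM in KO plus WT and 23.5 FPKM in KO plus mutant, against 21.9 FPKM in Sall4 KO replicate 1, so Copg2 differed little in that pair. In KO plus mutant replicate 2, where Mest was lowest, Copg2 was at 83.9 RPKM, the highest of the libraries that listed it. Phlda2 was at 34.9 FPKM in KO plus WT and at 15.3 FPKM and 8.85 RPKM in KO plus mutant, against 11.4 FPKM and 14.7 RPKM in Sall4 KO, a log2 ratio of 1.76 in KO plus WT, and log2 ratios of 0.66 and -0.41 in the KO plus mutant pairs.

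**Figure D3:**
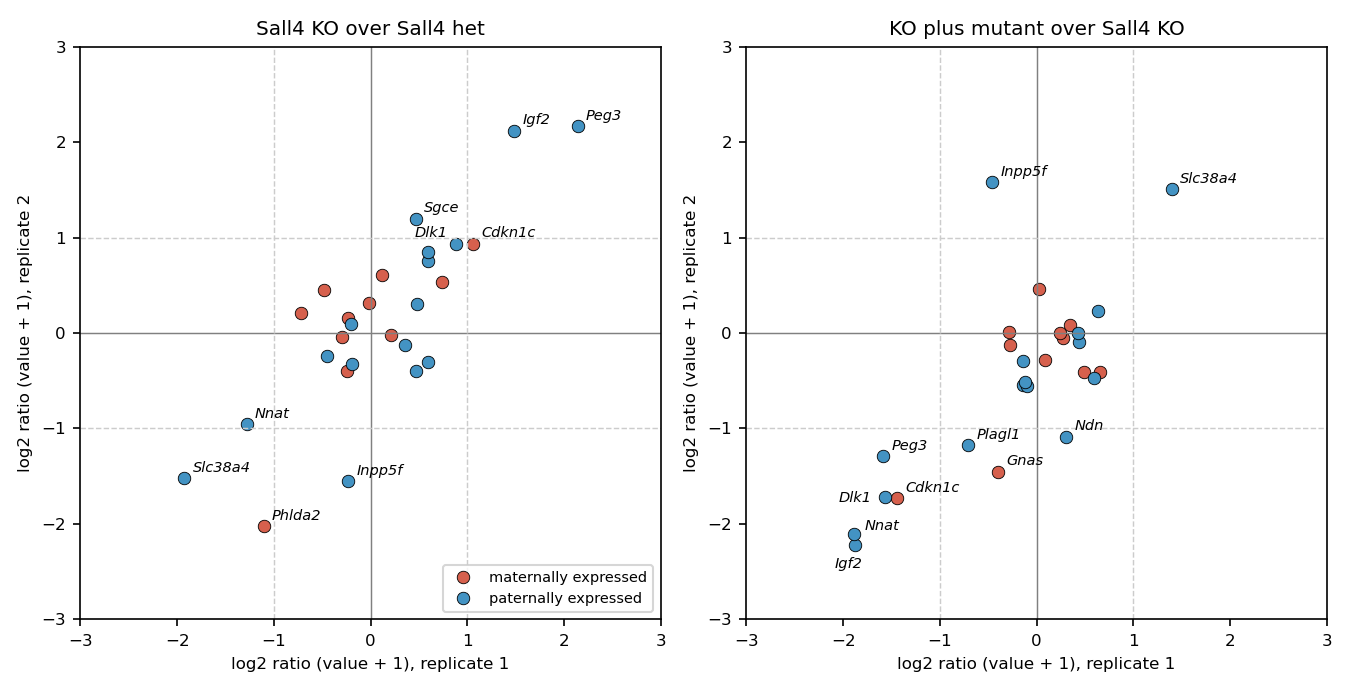
Log2 ratios of the 27 fitted imprinted genes in replicate 1 (x axis) against replicate 2 (y axis), for Sall4 KO over Sall4 het (left) and KO plus mutant over Sall4 KO (right); red points are maternally and blue points paternally expressed genes, and dashed lines mark 2-fold. Igf2 and Peg3 lie beyond 2-fold higher in both replicates on the left and beyond 2-fold lower on the right, and Slc38a4 the other way; both panels use the same Sall4 KO libraries.

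The tables of KO plus WT and KO plus mutant replicate 1 list the same genes, so this pair, added after the data had been seen, avoids a change of annotation. Of 26 imprinted genes at 5 FPKM or more in at least 1 of the 2 libraries, 3 were 2-fold higher in KO plus WT, where 2.16% of all genes were, and 0 were 2-fold lower, where 1.24% were. Of the 3, Nnat and Mest reached 5 in KO plus WT alone. The 3 were Nnat (24.8 FPKM in KO plus WT against 0.799 in KO plus mutant, log2 ratio 3.81), Mest (35.0 against 1.86, 3.62) and Phlda2 (34.9 against 15.3, 1.10). Cdkn1c followed at 7.01 against 3.34 FPKM (0.85) and Snrpn at 107 against 65.0 FPKM (0.66). The lowest was Peg10 at 23.0 against 38.2 FPKM (-0.75), and the median of the 26 was -0.02 beside 0.02 for all genes.

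**Figure D4:**
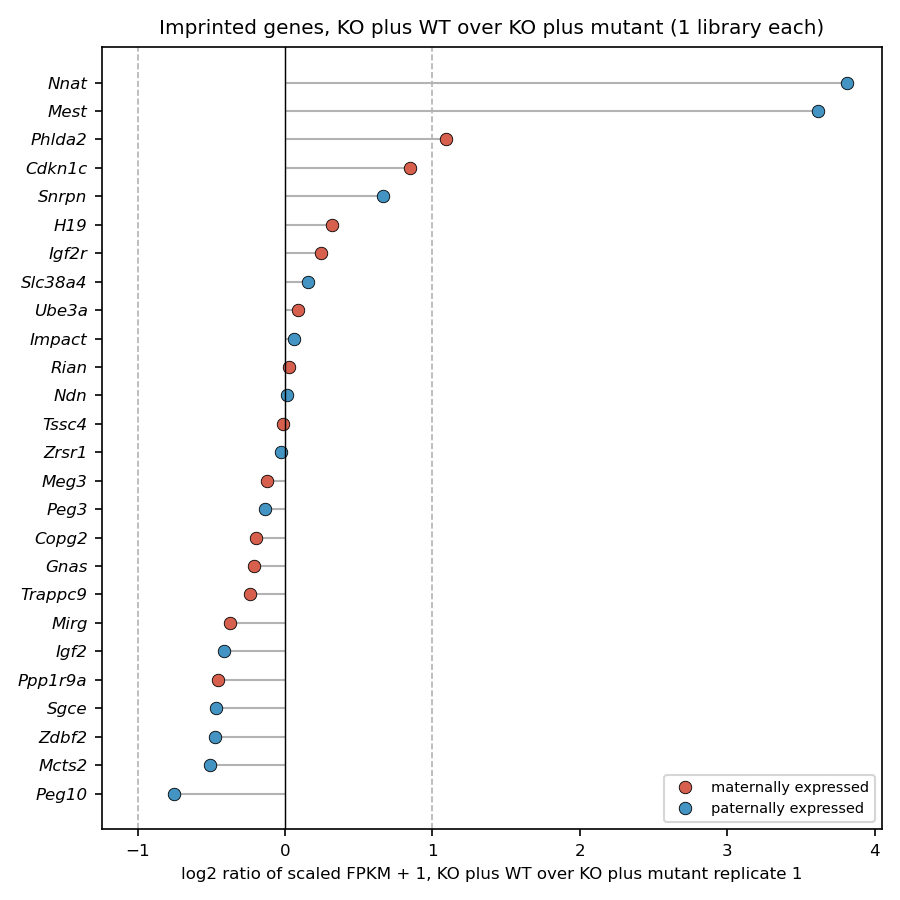
Log2 ratio of KO plus WT over KO plus mutant replicate 1 for 26 imprinted genes at 5 FPKM or more in at least 1 of the 2 libraries, with maternally expressed genes in red, paternally expressed genes in blue and dashed lines at 2-fold. Nnat at 3.81 and Mest at 3.62 stand far beyond the next gene, Phlda2 at 1.10, and all others lie within 2-fold.

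Counted over the fit, 0 of 11632 genes passed in limma for KO plus mutant against Sall4 KO (0%), and the 27 imprinted genes had adjusted p-values of 0.341 to 0.950. At an unadjusted p under 0.05, 1 imprinted gene was higher (5.15% of all genes) and 6 were lower (4.62%). In both replicate pairs 1 was 2-fold higher (1.26% of all genes) and 5 were 2-fold lower (0.808%). The median was -0.12 over imprinted genes and -0.02 over all genes, and without KO plus mutant replicate 1 that of imprinted genes was -0.37. With values as deposited, without rescaling, the medians were -0.37 over imprinted genes and -0.28 over all genes, and 1 imprinted gene was higher and 8 were lower at that p; of all genes at that p, 52.7% were higher with rescaling and 13.7% as deposited. Without KO plus mutant replicate 2, 787 genes passed, among them Igf2, Nnat, Peg3 and Dlk1, which were lower at adjusted p-values of 0.0240 to 0.0426; without replicate 1, 329 genes passed and 0 imprinted genes did.

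In single pairs, 4 of 23 imprinted genes were 2-fold higher and 3 lower in KO plus WT over Sall4 KO (8.55% and 14.1% of all genes). In KO plus mutant over Sall4 KO, 1 of 23 was higher and 6 lower in replicate 1 (7.51% and 13.3%), and 2 of 24 were higher and 9 lower in replicate 2 (14.5% and 2.06%). The 9 were Igf2, Nnat, Cdkn1c, Dlk1, Gnas, Peg3, Mirg, Rian and Ndn, of which Dlk1, Mirg and Rian lie in the same cluster. Cdkn1c, Mest and Nnat in replicate 1, and Cdkn1c, Dlk1, Igf2, Ndn and Nnat in replicate 2, reached 5 in Sall4 KO alone. Gnas, which encodes the stimulatory G protein subunit, was at 35.9 RPKM in KO plus mutant replicate 2 against 122.2 in Sall4 KO replicate 2, but at 93.0 against 149.1 FPKM in replicate 1. The shares of all genes past 2-fold in these pairs were large and lopsided in opposite ways between replicates. Replicate 1 crosses 2 annotations, whose part in the result was not tested.

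Against Sall4 het, 0 of 11632 genes passed for KO plus mutant in limma (0%), with the smallest adjusted p at 0.197. Of the 27 imprinted genes, 1 was higher at an unadjusted p under 0.05 (4.87% of all genes), Peg3 at a log2 change of 0.71 ± 0.23, and 4 were lower (5.67%), Nnat, Phlda2, Dlk1 and Cdkn1c. As deposited, 0 were higher and 6 lower, the median of all genes was -0.24, and the share of higher genes among all at that p was 10.7%, against 46.2% with rescaling and 61.4% with upper quartile scaling. In both pairs 0 were 2-fold higher (0.559%) and 1, Nnat, was 2-fold lower (1.1%). Igf2 and Slc38a4 differed from Sall4 het by log2 changes of -0.25 ± 0.24 and -0.26 ± 0.24. In single pairs of KO plus mutant over Sall4 het, 1 of 23 was 2-fold higher and 2 lower in replicate 1 (7.48% and 14%), and 0 of 22 were higher and 4 lower in replicate 2 (12.7% and 6.06%). Mest and Nnat in replicate 1, and H19, Ndn and Nnat in replicate 2, reached 5 in Sall4 het alone. H19 was among the lower ones of replicate 2, at 0.866 RPKM in KO plus mutant against 8.90 in Sall4 het.

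Other values moved between the add-backs and Sall4 KO. The summed fibroblast markers were 33.2 FPKM in KO plus WT and 22.5 FPKM and 13.5 RPKM in KO plus mutant, against 143 FPKM and 51.9 RPKM in Sall4 KO. The summed trophoblast markers were 65.1 FPKM in KO plus WT and 65.6 FPKM and 50.9 RPKM in KO plus mutant, against 161.7 FPKM and 72.5 RPKM in Sall4 KO. Primitive endoderm markers summed to 69.3 FPKM in KO plus WT and to 79.7 FPKM and 60.1 RPKM in KO plus mutant, against 198.9 FPKM and 105.4 RPKM in Sall4 KO. Their part in the imprinted genes' values was not tested. Between KO plus WT and KO plus mutant replicate 1, where Nnat and Mest differed most, the primitive endoderm markers Col4a1 and Col4a2 were past 2-fold lower in KO plus WT (5.07 FPKM in KO plus WT against 11.7 in KO plus mutant, and 2.33 against 6.01). In that pair only 3 of 10 fibroblast and 3 of 10 trophoblast markers reached 5 FPKM. Over these the median log2 ratio was 0.48 for fibroblast and -0.02 for trophoblast markers, which does not describe the rest of either list.

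Loss of both factors was read from the DKO library against its wild-type cells, a single pair without a test. Of 28 imprinted genes that reached 5 FPKM in at least 1 of the 2 libraries, 10 were more than 2-fold higher in DKO, where 4.83% of all genes were, and 2 more than 2-fold lower, where 3.67% were. Of the 10, Cdkn1c, Nnat, Peg10 and Sgce reached 5 in DKO alone, and of the 2 lower ones Phlda2 did so in the wild-type cells alone, so these counts partly follow from the filter. The median log2 ratio was 0.63 over the 28 imprinted genes and -0.01 over all genes, and 21 of the 28 were above 0. Higher genes came from both parental groups, 4 of 13 maternally and 6 of 15 paternally expressed genes, and the lower ones were 1 of each. Of the 4, Meg3, Rian and Mirg lie in the Dlk1-Dio3 cluster, and of the 6, Peg10 and Sgce in the Peg10 cluster. These counts are therefore of genes and not of separate loci.

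The paternally expressed Peg10, Nnat and Mest led. Peg10 was at 33.7 FPKM in DKO against 3.11 FPKM in the wild-type cells, a log2 ratio of 3.10, and its neighbour Sgce at 11.8 against 2.80 FPKM, a ratio of 1.77. Nnat was at 23.8 FPKM in DKO against 2.74 in the wild-type cells (2.75) and Mest at 46.2 against 8.67 (2.31). For Peg10, Nnat and Mest the wild-type cells of this pair were below Sall4 het replicate 1 and Sall1 het, which had 60.95 and 18.8 FPKM of Peg10, 17.6 and 20.9 of Nnat, and 41.5 and 26.9 of Mest, while for Sgce they were near Sall1 het, at 2.69.

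The maternally expressed RNAs of the Dlk1-Dio3 cluster were higher together. Meg3 was at 325 FPKM in DKO against 73.6 in the wild-type cells, a log2 ratio of 2.15. Rian was at 209.9 FPKM in DKO against 67.1 (1.66), and Mirg at 31.2 against 6.05 (2.22). Of the paternally expressed genes of the cluster, Dlk1 was at 0.626 FPKM in DKO and 0.565 in the wild-type cells, and Dio3, the thyroid hormone inactivating enzyme gene, at 7.03 and 5.37. Rtl1, which the maternal strand's microRNAs target, was at 1.04 FPKM in DKO and 0.254 in the wild-type cells, a log2 ratio of 0.71.

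At the H19-Igf2 cluster both partners were higher in DKO, with Igf2 at 57.2 FPKM against 23.0 (log2 ratio 1.30) and H19 at 109.1 FPKM against 69.8 (0.66). Cdkn1c was at 13.8 FPKM in DKO against 3.26 in the wild-type cells (1.82), and Phlda2 at 4.65 FPKM against 29.1 (-2.39), so these neighbours again differed in direction. Slc22a18 and Ascl2 of the cluster were at 1.29 and 1.71 FPKM in DKO against 3.10 and 2.84 in the wild-type cells, log2 ratios of -0.83 and -0.49. Slc38a4 was at 6.46 FPKM in DKO against 55.9 (-2.91), and Impact at 38.9 against 16.0 (1.26). Peg3 was at 5.97 FPKM in DKO and 8.54 in the wild-type cells (-0.43). The other imprinted genes at 5 FPKM or more lay between -0.73 for Grb10 and 0.82 for Ndn.

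**Figure D5:**
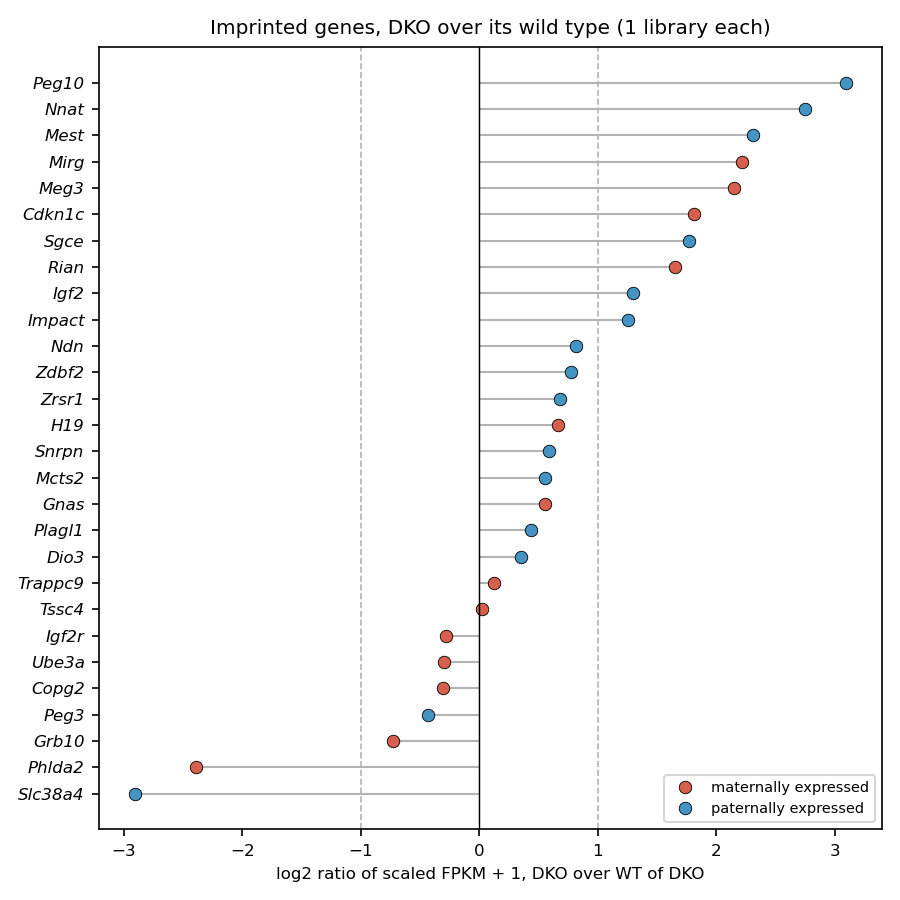
Log2 ratio of DKO over its wild-type cells for 28 imprinted genes at 5 FPKM or more in at least 1 of the 2 libraries, with maternally expressed genes in red, paternally expressed genes in blue and dashed lines at 2-fold. Peg10, Nnat and Mest are at 2.31 or above, Meg3, Mirg and Rian are all beyond 2-fold, and Slc38a4 and Phlda2 are the 2 genes beyond 2-fold lower.

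The DKO pair shares no library with the Sall4 pairs, and its values can be set beside theirs. Igf2, Cdkn1c, Sgce and Impact were higher and Slc38a4 and Phlda2 lower in the knockout cells of both kinds, DKO and Sall4 KO, than in their controls. Nnat and Mest were higher in DKO but lower in Sall4 KO, and Peg3, with the largest Sall4 KO difference, was not higher in DKO. The difference between the DKO and Sall4 KO contrasts was not tested, as the DKO pair has 1 library a group. Trophoblast markers moved with the DKO pair: the 10 markers summed to 170.4 FPKM in DKO against 39.6 in the wild-type cells, carried by Krt8 (63.9 against 4.80), Krt18 (73.3 against 4.49) and Plac1 (5.86 against 0.0940), while Cdx2 was at 0.0726 and 0.0558 and Tpbpa was listed at 0 in both. Fibroblast markers summed to 408.7 FPKM in DKO and 411.9 in the wild-type cells, the highest of the 12 libraries in both, with Col1a1 at 103 and 97.9. The part of these cells in the imprinted genes' values was not tested. The growth protocol in the labels describes TT2 culture without feeders. The DKO pair was labelled C57BL/6J, so whether that protocol covers it is not known. The source of the fibroblast marker RNA was not tested.

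Loss of Sall1 alone left no imprinted gene past 2-fold. In Sall1 KO over Sall1 het, 0 of 24 imprinted genes at 5 FPKM or more were 2-fold higher or lower, where 0.624% and 0.722% of all genes were, and the 24 log2 ratios lay between -0.25 for Inpp5f and 0.49 for Nnat with a median of 0.04. Nnat was at 29.7 FPKM in Sall1 KO and 20.9 in Sall1 het, and Mest at 33.4 and 26.9 (log2 ratio 0.30). Phlda2, at 132.8 FPKM in Sall1 KO and 111.6 in Sall1 het, and Cdkn1c, at 25.9 and 27.6, had their highest levels of all 12 libraries in this pair. Peg3 was at 6.09 and 6.16 FPKM, Igf2 at 12.3 and 12.4, Slc38a4 at 47.2 and 52.7, and Meg3 at 98.6 and 89.3. Sgce was at 2.86 FPKM in Sall1 KO and 2.69 in Sall1 het, Impact at 35.6 and 33.2, Peg10 at 20.9 and 18.8, Rian at 103.5 and 101.4, and Mirg at 15.4 and 14.5. With 1 library a group these differences carry no error, and this pair differed little over all genes too.

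The control lines themselves differed in their imprinted RNAs, in FPKM tables that were normalised separately and not rescaled here. Peg10 was at 60.95 in Sall4 het replicate 1, 3.11 in the wild-type cells of the DKO and 18.8 in Sall1 het. H19 was at 69.8 in the wild-type cells of the DKO, 25.5 in Sall1 het and 0.914 in TT2. Grb10, the maternally expressed inhibitor of insulin signalling, was at 17.4 in the wild-type cells of the DKO, 3.01 in Sall4 het replicate 1 and 2.74 in Sall1 het, and Plagl1 in the same order was at 8.90, 1.38 and 0.777. Phlda2 was at 111.6 in Sall1 het, 29.1 in the wild-type cells of the DKO and 25.9 in Sall4 het replicate 1. TT2, whose table is at transcript level and was used for no ratio, had the highest Meg3 of all libraries at 405.6 and the lowest Igf2, at 0.0432, and Snrpn, at 1.62. Snurf, listed apart from Snrpn, was at 29.8 FPKM in TT2, 12.7 in the wild-type cells of the DKO and 33.0 in Sall1 het. It was not listed for Sall4 het replicate 1. Line, culture, preparation and annotation cannot be told apart in these values.

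A list of 27 genes linked to setting, keeping or removing imprints was largely alike in Sall4 KO and Sall4 het. It includes ZFP57, TRIM28 and the DNA methyltransferases, and also Tet1, Tet2, Tet3 and Tdg, which act in removing DNA methylation. Of 26 tested, 0 passed the adjusted test in limma. At an unadjusted p under 0.05, 1 was higher and 2 were lower, where 3.8% and 4.71% of all genes were. The median log2 change was 0.10 beside -0.02 for all genes. Dppa3, which guards methylated imprints in the zygote, was the only one of them 2-fold apart in both pairs, at 2.11 FPKM and 3.58 RPKM in Sall4 KO against 47.7 FPKM and 183.3 RPKM in Sall4 het. It was at 100.6 FPKM in KO plus WT and at 26.4 FPKM and 12.7 RPKM in KO plus mutant, and so was lower in both Sall4 KO libraries than in any add-back. Zfp57 was at 128.5 FPKM and 200.5 RPKM in Sall4 KO and 146.9 FPKM and 269.2 RPKM in Sall4 het. In the DKO pair, 2 of 23 at 5 FPKM or more were 2-fold higher and 0 lower, where 4.83% and 3.67% of all genes were. The 2 were Dnmt3l (173.8 FPKM in DKO against 24.9) and Dnmt3b (36.1 against 9.59). In the Sall1 pair 0 of 22 were past 2-fold, where 0.624% of all genes were higher and 0.722% lower. In KO plus WT over Sall4 KO, 1 of 24 was past 2-fold higher (Dppa3), where 8.55% of all genes were. In that pair 6 were lower (Zfp57, Trim28, Dnmt3a, Ehmt2, Hells and Atrx), where 14.1% of all genes were. In KO plus mutant replicate 1 over Sall4 KO, 1 of 24 was higher (Dppa3) and 6 lower, where 7.51% and 13.3% of all genes were. Both of these pairs cross annotations. In replicate 2, Dppa3 was higher and 0 of 22 were lower, where 14.5% and 2.06% of all genes were. In KO plus WT over KO plus mutant replicate 1, Dppa3 was the 1 of 22 past 2-fold, and it was higher. In that pair 2.16% of all genes were 2-fold higher and 1.24% lower. Zfp57 was at 45.7 FPKM in KO plus WT and 72.2 in KO plus mutant.

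A further 40 imprinted genes, less often cited or expressed in other tissues, were listed beside the 46. Of the 22 that could be tested, 0 passed in limma for Sall4 KO against Sall4 het. At an unadjusted p under 0.05, 4 were higher and 1 lower, where 3.8% and 4.71% of all genes were. The median log2 change was 0.16 beside -0.02 for all genes. In both pairs the only ones past 2-fold were Cobl, an actin nucleator at 26.9 FPKM and 18.1 RPKM in Sall4 KO against 10.8 FPKM and 6.01 RPKM in Sall4 het, and Pon2, a lactonase at 6.77 FPKM and 9.07 RPKM against 2.25 FPKM and 2.58 RPKM. Of all genes, 1.03% were 2-fold higher in both pairs. In the DKO pair 1 of 11 was past 2-fold, Pon2 at 6.69 FPKM in DKO against 1.58. Of all genes in the DKO pair, 4.83% were 2-fold higher and 3.67% lower. In the Sall1 pair 0 of 13 were past 2-fold, where 0.624% of all genes were higher and 0.722% lower. Blcap, the gene around Nnat, was at 15.5 FPKM in DKO and 17.1 in the wild-type cells and at 14.8 FPKM in KO plus WT and 15.8 in KO plus mutant replicate 1.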

How the data were processed

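RNA was sequenced from 12 libraries of 9 groups of mouse ES cells. Per the file headers, the authors deposited FPKM for replicate 1 of each Sall4 group and for the single libraries, and RPKM for replicate 2. Per the submitters' processing notes, TopHat, Bowtie 0.12.7 and SAMtools were among the tools and mm9 the build. The step each did, the RNA selection and strand handling are not given in the sources used here. No read totals were given, so depth is unknown and no counting interval is given.

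Entries of 1 symbol were summed. Tables differ in annotation (37883 entries for Sall4 KO and het replicate 1, 23234 or 23235 for the other FPKM tables at gene level, 19049 for Sall4 KO and het replicate 2, 20223 for KO plus mutant replicate 2). The add-back ratios to Sall4 KO in replicate 1 therefore cross annotations. TT2 is at transcript level and entered no ratio.

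Values of the 6 Sall4 KO, het and KO plus mutant libraries were scaled by median ratios, a pseudocount of 1 was added, and limma 3.58.1 (R 4.3.3) was fitted on log2 values with group and replicate as terms, keeping genes that reached 1 in 2 or more of the 6, two-sided, with Benjamini-Hochberg adjustment over all genes tested at 0.05. The replicate block was used because strain label and unit go with the number. Annotation goes with it for Sall4 KO and het only. KO plus mutant had 23234 entries against their 37883 in replicate 1, and 20223 against 19049 in replicate 2. The block therefore does not take annotation out of the KO plus mutant comparisons. Deviations of same-numbered libraries from their group means correlated at 0.579 for Sall4 KO and het, 0.103 for KO plus mutant and het, and 0.0631 for KO plus mutant and KO, over 11632 genes. Single pairs, within 1 unit, were scaled alone and read as log2 ratios of genes that reached 5 in either library, with a 2-fold limit and no test. The fit was tested on simulated data. Members, gene lists and marker lists were chosen with earlier results of these data known. Values in full are given for members 2-fold apart in the same direction in both pairs of a fitted comparison, or past 2-fold in the DKO, Sall1 or KO plus WT pair, and for their cluster partners. Other pseudocounts, filters, scalings, designs and each replicate left out were alternatives. Promoters were read from a RefSeq table of GRCm38.p6, and the 6-letter motif was the only one searched.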

Additional observations from a re-analysis of the deposited data

How the results depend on the processing

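Of 404 alternative values for 35 results, 377 kept their direction and their side of the threshold or, for medians, moved by less than 1 SD between replicate pair medians (0.171 for Sall4 KO over het, used for all single pairs too, 0.286 for KO plus mutant over KO and 0.0205 for KO plus mutant over het), 12 passed the threshold only in the alternative, 13 moved further and 2 reversed. Sall4 KO against Sall4 het had 0 genes called under every alternative. Without a replicate block, 0 genes were called in each of the 3 comparisons, as with it, and the block changed no call. Leaving out 1 library gave 0 to 787 genes called for KO plus mutant against Sall4 KO (329 without mutant replicate 1, of which 326 were higher, and 787 without replicate 2, of which 287 were higher), and 0 to 677 against Sall4 het (211 and 677). The cause was not tested. For KO plus mutant against Sall4 het, 1 gene was called with a pseudocount of 0.1 and 1 with upper quartile scaling, neither of them imprinted. The median of imprinted genes, -0.12 in both comparisons of KO plus mutant, was for KO plus mutant over KO -0.37 as deposited and -0.37 to -0.084 with 1 library left out. For KO plus mutant over het it was -0.20 with a pseudocount of 0.1, -0.043 with 5, 0.018 over genes that reached 1 in each of the 6 libraries, -0.31 as deposited, -0.019 with upper quartile scaling, and -0.16 to 0.21 with 1 library left out. In single pairs, the median was 0.19 for Sall4 KO over het replicate 2 with members at 1 or more, and as deposited -0.15 for KO plus WT over Sall4 KO, -0.38 for KO plus mutant over Sall4 KO replicate 1 and -0.79 for replicate 2. Phlda2 in KO plus mutant against Sall4 KO, 0.15 as fitted, was -0.14 as deposited, and with 1 library left out ran between -0.67 (without mutant replicate 1) and 0.90 (without mutant replicate 2). Precision is limited by 2 libraries a group, unknown depth and annotations that differ between tables; genes under 1 carry little information on this scale.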
